A study of Mus musculus with 8 samples.

Results

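Slc13a3, Acod1 and Sucnr1 are 3 genes that handle or sense dicarboxylates, the class of metabolites that includes succinate and itaconate. They were followed in macrophage-enriched RNA from mouse inguinal fat pads after Aldara cream on the skin. Their rows were found by symbol, through the Ensembl identifiers, among the 56748 rows of the deposited count table. All 3 have a row, and 2 of them, Slc13a3 and Acod1, passed the low-count filter that left 16780 genes for testing. The genes were chosen by their place in dicarboxylate metabolism and selected on their counts in this same comparison, Aldara against Vehicle, so their levels and fold changes are given as a description, with no test.

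The Aldara libraries came from WT female mice that received about 62.5 mg of cream on the shaved back, near the tail, once a day for 3 days. The cream contains 5% imiquimod, which activates Toll-like receptor 7. The Vehicle libraries came from WT female mice given the same volume of a control cream (Boots Aqueous Cream and Vaseline Lanette Cream are named). Tissue was taken 24 h after the last dose, and the age of the mice is not given in the sources used here. There are 4 libraries per group. Each is a pool of F4/80 bead-selected cells of 6 fat pads, about 30000 cells, accepted at over 90% F4/80+CD64+ by flow cytometry. Whether different pools hold different animals is not stated, so every p-value reflects pool-to-pool spread, which may be technical. Total counts ranged from 19537607 to 24340674 in Aldara libraries and from 21874780 to 34471508 in Vehicle libraries.

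The SLC13 family are sodium-coupled transporters of the plasma membrane that bring sulfate or di- and tricarboxylates into the cell. Slc13a3 (NaDC3) carries succinate, alpha-ketoglutarate, N-acetylaspartate and itaconate, and is best known from kidney, liver and brain. Acod1 (also called Irg1) is the mitochondrial enzyme that makes itaconate from cis-aconitate and is induced in macrophages by inflammatory stimuli. Itaconate slows succinate dehydrogenase and modifies KEAP1, the restraint on the transcription factor NRF2. Sucnr1 is the G protein-coupled receptor at the cell surface that detects extracellular succinate.

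The sequences around the start sites are shown because the 3 genes differed so widely in level in the same libraries. Each is the RefSeq window on GRCm38.p6 from 250 bases before to 50 bases after the start, written 5′ to 3′ on the gene's own strand. The window of Slc13a3 is chr2:165473148-165473447 on the minus strand, that of Acod1 is chr14:103046762-103047061 on the plus strand, and that of Sucnr1 is chr3:60081619-60081918 on the plus strand. Capitals mark matches to 6 motifs searched on both strands.
Slc13a3: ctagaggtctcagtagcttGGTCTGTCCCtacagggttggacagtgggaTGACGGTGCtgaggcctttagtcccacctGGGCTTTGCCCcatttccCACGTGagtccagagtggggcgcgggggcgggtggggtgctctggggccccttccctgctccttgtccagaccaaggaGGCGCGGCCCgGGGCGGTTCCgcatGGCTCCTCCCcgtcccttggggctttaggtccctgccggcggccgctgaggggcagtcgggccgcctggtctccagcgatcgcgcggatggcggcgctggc
Acod1: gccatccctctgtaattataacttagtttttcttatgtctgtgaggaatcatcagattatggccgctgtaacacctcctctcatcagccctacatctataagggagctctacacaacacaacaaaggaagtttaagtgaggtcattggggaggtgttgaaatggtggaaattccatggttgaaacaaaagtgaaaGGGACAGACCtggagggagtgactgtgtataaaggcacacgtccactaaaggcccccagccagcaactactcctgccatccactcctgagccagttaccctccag
Sucnr1: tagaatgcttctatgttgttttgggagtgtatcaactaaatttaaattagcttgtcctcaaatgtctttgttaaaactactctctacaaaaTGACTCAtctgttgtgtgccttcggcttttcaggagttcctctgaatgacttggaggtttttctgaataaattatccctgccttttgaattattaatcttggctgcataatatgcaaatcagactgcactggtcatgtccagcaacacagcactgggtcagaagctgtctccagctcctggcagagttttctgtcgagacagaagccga
The motifs were the ISRE core (GAAA repeated after 2 free bases), NF-kB (GGG and CC with 5 free bases between), AP-1 TGANTCA, ETS/PU.1 GAGGAAG, NRF2 TGANNNNGC and the E-box CACGTG. The Slc13a3 window held 6 NF-kB matches, with first bases at -231, -172, -171, -76, -65 and -51 from the start site, of which those at -172 and -171 overlap each other. It also held an NRF2 match at -201 and an E-box match at -154. The Acod1 window held 1 NF-kB match at -55, and the Sucnr1 window held 1 AP-1 match at -159. Of 32851 promoter windows of this length, 50.8% held the NF-kB letters, 41.3% the NRF2 letters, 13.6% the ETS/PU.1 letters, 7.8% the AP-1 letters, 7.2% the E-box and 3.4% the ISRE core. The Slc13a3 window was 69.3% G and C with 22 CpG dinucleotides, against 47% and 2 for Acod1, 40.7% and 3 for Sucnr1, and medians of 52.7% and 7 over all windows. A match is a description of the letters, not of binding.

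Slc13a3 was far more abundant in Aldara libraries. Its counts were 4637, 9313, 20093 and 16205 in Aldara libraries 1 to 4, and 172, 229, 304 and 248 in Vehicle libraries 1 to 4. Scaled to library size with TMM factors, as CPM, these were 198, 371, 827 and 862 CPM in Aldara, and 8.07, 10.5, 8.58 and 7.96 CPM in Vehicle. Every Aldara library stood far above every Vehicle library, the groups did not overlap, and Aldara libraries 3 and 4 were the highest. Among all tested genes 9.97% had every Aldara library above every Vehicle library, a share from which nothing is read here because the gene was selected on this contrast. The mean was 565 ± 331 CPM in Aldara and 8.77 ± 1.16 CPM in Vehicle (SD, n = 4 each), a ratio of means of 64.4. The log2 fold change, Aldara minus Vehicle, was 6.01 (SE 0.5), which ranked 7 of 16780 tested genes from the top. It lay between 5.72 and 6.29 when any 1 library was left out. Libraries within Aldara differed widely, with a coefficient of variation of 58.7%, against 13.2% within Vehicle.

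Per kilobase of merged exon, Slc13a3 stood at 108 ± 63.6 CPM per kb in Aldara and 1.68 ± 0.223 CPM per kb in Vehicle (SD, n = 4 each). Among 21871 protein-coding genes ordered by CPM per kb in each library, its place was 1163, 504, 237 and 232 in Aldara libraries 1 to 4. In Vehicle libraries 1 to 4 it was 10493, 9976, 10483 and 10548. The transcript thus stood within the top 5.3% or higher of protein-coding genes in each Aldara library, while in Vehicle libraries it sat near the middle of the order. A predicted antisense gene inside the Slc13a3 locus, Gm14437, had 33 counts over the Aldara libraries and 0 over the Vehicle libraries. The library kit does not mark the strand, so reads of Gm14437 and Slc13a3 cannot be told apart. Slc13a3 had 50248 and 953 counts in Aldara and Vehicle, and any antisense part of them cannot be read from the counts of Gm14437.

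**Figure D1:**
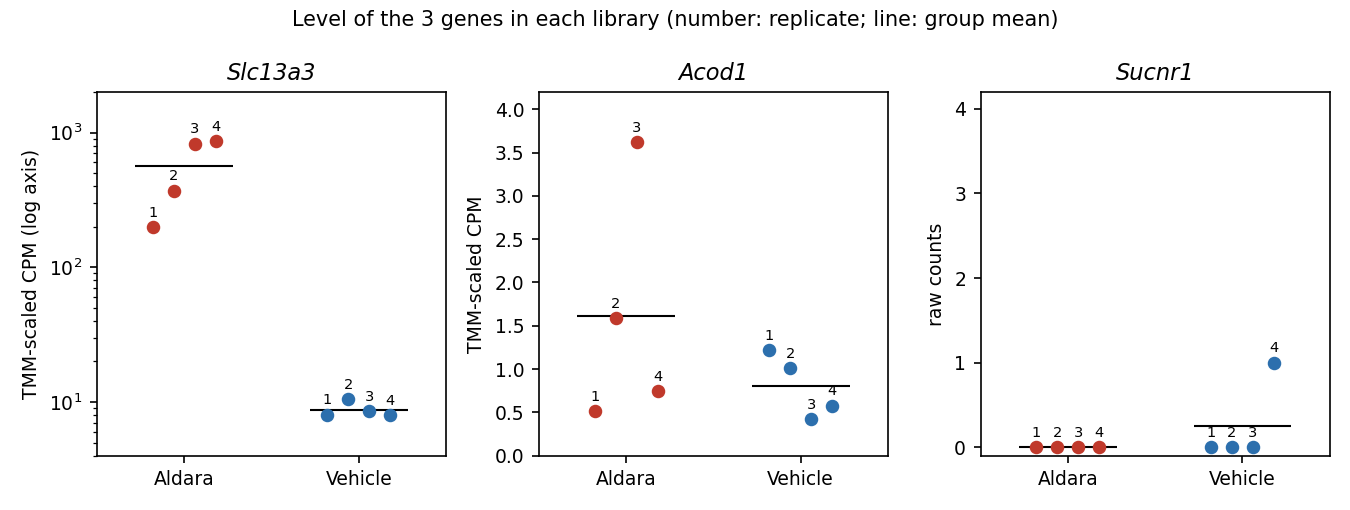
TMM-scaled CPM of Slc13a3 (log axis) and Acod1 and raw counts of Sucnr1, Aldara left of Vehicle, with a numbered point for each library and a line at the group mean. Slc13a3 lies between 198 and 862 CPM in the 4 Aldara libraries and between 7.96 and 10.5 CPM in the 4 Vehicle libraries, Acod1 overlaps between groups, and Sucnr1 is at 0 in all libraries but Vehicle 4.

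The libraries also differed in the level of most macrophage marker genes, though not by the same amount for each. Adgre1, which encodes F4/80, the antigen used for selection, averaged 967 ± 476 CPM in Aldara and 82.5 ± 20.4 CPM in Vehicle (SD, n = 4 each, log2 fold change 3.55, SE 0.4, adjusted p = 0.0021 by edgeR's quasi-likelihood test with Benjamini-Hochberg adjustment). Fcgr1, which encodes CD64, the other antigen of the purity check, averaged 26.5 CPM in Aldara and 19.7 CPM in Vehicle (adjusted p = 0.436). Of the 23 genes of a macrophage marker list, 16 rose and 0 fell, where 6.98% of all tested genes rose and 3.86% fell. With the replicate block 21 of the 23 rose and 0 fell, where 9.21% of all tested genes rose and 6.14% fell. The log2 fold changes of the 23 genes ran from -0.31 to 3.55, with 22 above 0 and 1 below. Their summed level was 5090 to 12900 CPM in Aldara and 2300 to 4370 CPM in Vehicle. The labels name macrophages alone, but epithelial transcripts were abundant in both groups: the 11 epithelial markers summed to 12900 to 16600 CPM in Aldara and 13200 to 18800 CPM in Vehicle, none at 0. None of the 11 passed the test in either direction, though with the replicate block 1 rose and 2 fell. In bulk RNA, more cells of a type and more RNA per cell cannot be told apart.

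Other markers are set beside the 6.98% of all tested genes that rose and the 3.86% that fell (9.21% and 6.14% with the block). Of 12 neutrophil genes 2 rose (summed 494 to 668 CPM in Aldara, 227 to 532 CPM in Vehicle), yet Ly6g and Cxcr1 were at 0 in all libraries. Of the neutrophil genes, 9 were under 1 CPM in every library. Of 7 fibroblast genes 6 fell (67.8 to 141 CPM in Aldara, 210 to 574 CPM in Vehicle), and of 9 adipocyte genes 3 rose and 0 fell, 1 with the block (178 to 304 CPM in Aldara, 242 to 283 CPM in Vehicle). Monocyte genes summed to 597 to 1150 CPM in Aldara and 517 to 673 CPM in Vehicle, with 0 of 7 up (1 with the block) and 1 down. Peritoneal macrophage genes summed to 288 to 374 CPM in Aldara and 264 to 563 CPM in Vehicle, with 1 of 11 up and 1 down. The log2 fold changes of the 10 that were tested ran from -2.45 to 4.66. Of 7 endothelial genes, all tested, 0 rose and 0 fell, and of 8 dendritic cell genes 6 were tested, 0 rose and 2 fell. Only 1 of 5 mast cell genes and 1 of 8 T and NK cell genes could be tested, and neither passed. Of 5 B cell genes the 1 tested, Cd79b, rose (5.95 CPM in Aldara, 0.408 CPM in Vehicle, log2 fold change 3.84, adjusted p = 0.000956 by edgeR), while the other 4 were under 1 CPM in every library. The part of any of these in the values of Slc13a3 was not tested.

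Slc13a3 differed between groups by more than the macrophage list did. This is a description only, because Slc13a3 was selected on this contrast and the list is an average of 23 genes. The geometric mean of the 23 macrophage genes was 117, 164, 290 and 274 CPM in Aldara libraries 1 to 4, and 52.6, 73.1, 94.5 and 74.1 CPM in Vehicle libraries 1 to 4. On the log2 scale, Slc13a3 minus that mean was 0.76, 1.18, 1.51 and 1.65 in Aldara libraries 1 to 4. It was -2.69, -2.79, -3.45 and -3.2 in Vehicle libraries 1 to 4. Slc13a3 thus lay above the macrophage mean in every Aldara library and below it in every Vehicle library. The difference between the group means of this measure was 4.31, against 1.46 for the macrophage list itself.

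Measured against single genes in place of the list, the difference was 2.33 relative to Adgre1, 4.0 relative to Ptprc (CD45, the pan-leukocyte phosphatase) and 4.83 relative to Csf1r (the receptor for the macrophage growth factor CSF1). As a share of the CPM of Adgre1, Slc13a3 was 46.1%, 52.5%, 58.6% and 65.3% in Aldara libraries 1 to 4, and 15.1%, 12.6%, 8.87% and 8.26% in Vehicle libraries 1 to 4. The ranges of these shares did not overlap, from which nothing is read because Slc13a3 was selected on this contrast. Csf1r averaged 543 ± 211 CPM in Aldara and 274 ± 70.4 CPM in Vehicle (SD, n = 4 each) and missed the threshold (adjusted p = 0.0648 by edgeR), though it passed with the replicate number as a block (adjusted p = 0.00114) and without Aldara library 1 (adjusted p = 0.0169). Ptprc rose (151 ± 62.8 CPM in Aldara, 41.6 ± 6.5 CPM in Vehicle, SD, n = 4 each, adjusted p = 0.0064 by edgeR). Tlr7, the receptor for imiquimod, averaged 38.9 ± 18.5 CPM in Aldara and 19 ± 6.42 CPM in Vehicle (adjusted p = 0.118 by edgeR, with the block 0.00209, without Aldara library 1 0.0332).

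**Figure D2:**
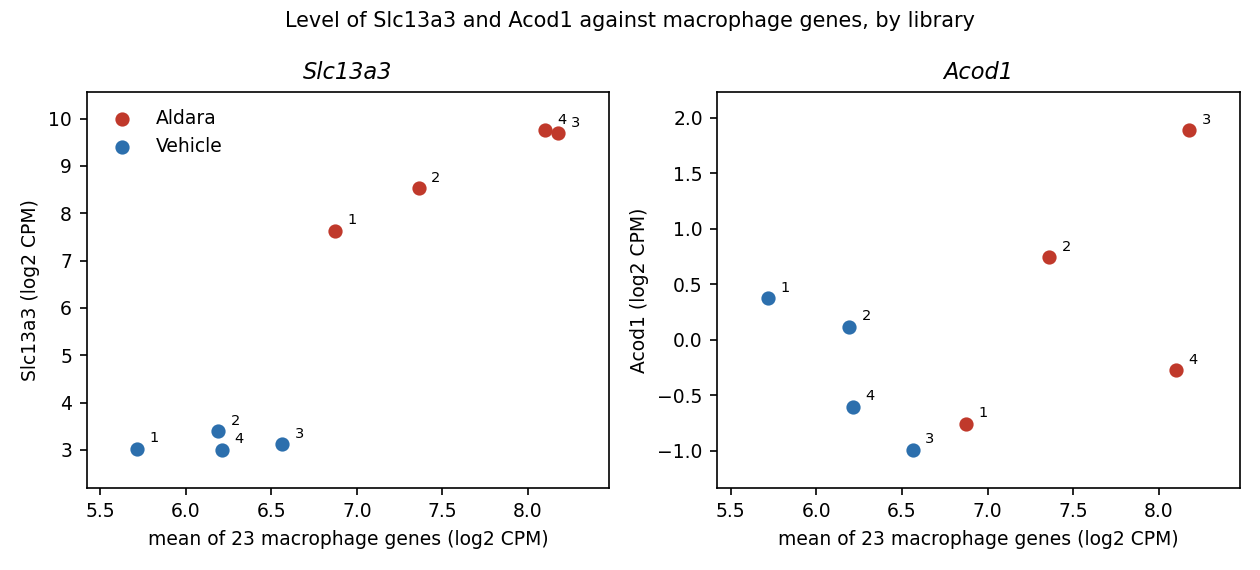
Log2 CPM of Slc13a3 (left panel) and Acod1 (right panel) on the vertical axes against the mean log2 CPM of the 23 macrophage genes on the horizontal axes, 1 numbered point per library, Aldara in red and Vehicle in blue. Slc13a3 exceeds the macrophage mean by 0.76 to 1.65 in Aldara and stands at -3.45 to -2.69 relative to it in Vehicle, while for Acod1 the ranges of the 2 groups overlap.

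The genes whose log2 CPM ran most like that of Slc13a3 over the 8 libraries were sought among 11170 protein-coding genes with at least 5 CPM on average in one group. All the r values below describe 8 libraries that share the same 2 groups, the same tissue and the same variation in macrophage genes. The closest were AB124611 (r = 0.997), Fpr1 (r = 0.997), Itgal (r = 0.996), Rac2 (r = 0.995) and Pik3ap1 (r = 0.994). Fpr1 encodes a receptor for formyl peptides, Itgal the alpha chain of the leukocyte integrin LFA-1, Rac2 a small GTPase of blood cells and Pik3ap1 an adaptor of PI3-kinase. After the group means were removed, r with Slc13a3 was 0.97, 0.943, 0.908, 0.948 and 0.998 in that order. Fpr1 averaged 19.8 CPM in Aldara and 0.245 CPM in Vehicle, the gene of the 5 whose fold was nearest that of Slc13a3. Its Vehicle values, 0.161 to 0.311 CPM, lay close to the 0.087 to 0.137 CPM that 3 counts give there, which limits its fold. Fpr1 and Itgal (160 CPM in Aldara, 3.75 CPM in Vehicle) met the 5 CPM limit only through Aldara. Adgre1 came at place 22 (r = 0.988, 0.893 without group means), Ptprc at place 131 (r = 0.966) and Csf1r at place 1207 (r = 0.832).

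**Figure D3:**
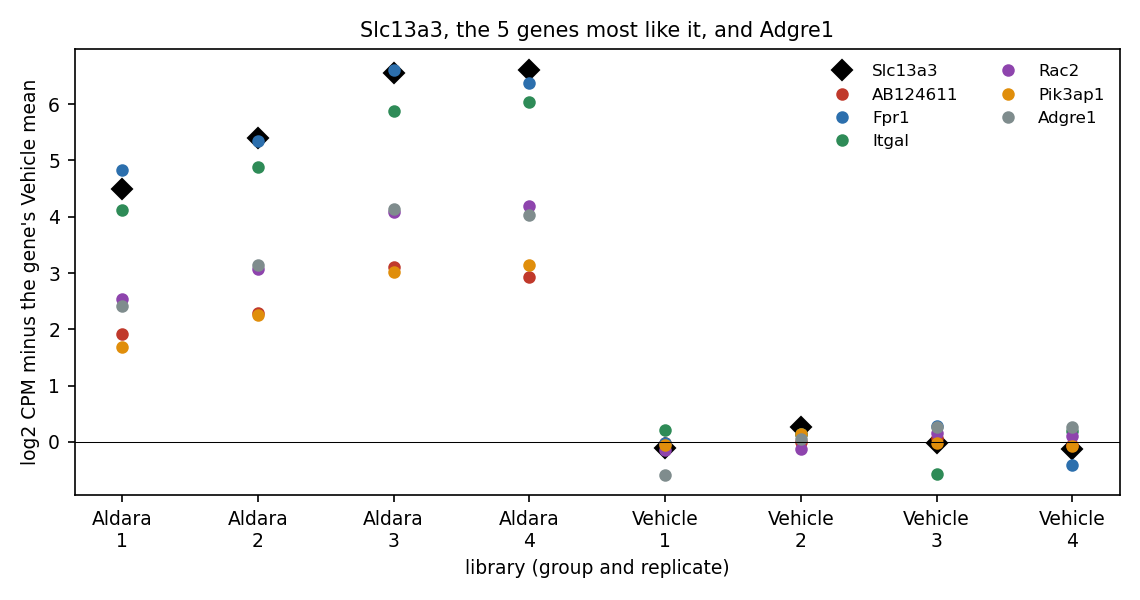
Log2 CPM minus the gene's own Vehicle mean, for Slc13a3, the 5 genes most like it and Adgre1, in the 4 Aldara libraries (left) and the 4 Vehicle libraries (right). All 7 genes are lowest in library 1 and highest in library 3 or 4 within Aldara, and all lie near 0 in Vehicle.

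Acod1 was scarcely present in either group. Its counts were 12, 40, 88 and 14 in Aldara libraries 1 to 4, and 26, 22, 15 and 18 in Vehicle libraries 1 to 4. In CPM these were 0.512, 1.59, 3.62 and 0.745 in Aldara, and 1.22, 1.01, 0.424 and 0.578 in Vehicle. Aldara library 3 was the highest and Aldara library 2 the next, but Aldara libraries 1 and 4 lay inside the Vehicle range, so the groups overlapped. The mean was 1.62 ± 1.41 CPM in Aldara and 0.807 ± 0.369 CPM in Vehicle (SD, n = 4 each), with a log2 fold change of 1.06 (SE 0.6). Without Aldara library 3 the log2 fold change was 0.29. The exact 95% Poisson intervals of the counts, which cover counting error only, were 6.2 to 21 for the 12 counts of Aldara library 1 and 70.6 to 108 for the 88 counts of Aldara library 3.

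Set against the macrophage list, Acod1 had the opposite sign. This measure is a difference of mean log2 CPM, whereas the log2 fold change of 1.06 came from the edgeR fit. Which cells the Acod1 reads came from was not tested. On the log2 scale relative to the macrophage list Acod1 was -7.63, -6.62, -6.29 and -8.38 in Aldara libraries 1 to 4. In Vehicle libraries 1 to 4 it was -5.34, -6.07, -7.55 and -6.82. The groups overlapped here too, and the group means differed by -0.78 (-7.23 ± 0.95 in Aldara, -6.45 ± 0.95 in Vehicle, SD, n = 4 each). This value ran from -1.15 to -0.4 when any 1 library was left out, was -0.41 without Vehicle library 1, and was -2.76 relative to Adgre1, -1.09 relative to Ptprc and -0.27 relative to Csf1r. Per kilobase, Acod1 stood at 0.617 ± 0.539 CPM per kb in Aldara, where Slc13a3 stood at 108 ± 63.6. In Vehicle it stood at 0.307 ± 0.141 CPM per kb, where Slc13a3 stood at 1.68 ± 0.223. Slc13a3 was thus above Acod1 in both groups on the length-scaled level.

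The genes most like Acod1 over the 8 libraries were Fam129a (r = 0.922), Stxbp2 (r = 0.911), Txnrd2 (r = 0.911), Slc35b2 (r = 0.904) and Dgcr6 (r = 0.9). Acod1 had as few as 12 counts in a library, so these values rest on sparse counts and are given only as a description. Their levels moved little: Stxbp2, for one, lay between 132 and 157 CPM in Aldara and between 129 and 138 CPM in Vehicle.

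Sucnr1 was at the limit of detection. It had 0 counts in each of the 4 Aldara libraries, and 0, 0, 0 and 1 count in Vehicle libraries 1 to 4. The group totals were 91160701 counts in Aldara and 109877315 counts in Vehicle. Taking 3 counts as the limit that a count of 0 allows, the floor was 0.123 to 0.154 CPM in a single Aldara library and 0.0329 CPM over the Aldara group, against 0.087 to 0.137 CPM in Vehicle libraries 1 to 3. The 1 count of Vehicle library 4, 0.0321 CPM, has an exact 95% Poisson interval of 0.0253 to 5.57 counts. Sucnr1 did not pass the low-count filter, and no fold is given since neither group reached 3 counts. Its relative Oxgr1, the receptor for alpha-ketoglutarate and itaconate, had 2 counts in Aldara and 2 counts in Vehicle.

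Within the SLC13 family, Slc13a2 (NaDC1, the low-affinity dicarboxylate transporter) was the one other member that could be tested. It had 8.07, 9.48, 9.51 and 2.34 CPM in Aldara libraries 1 to 4, and 4.31, 1.83, 1.69 and 1.22 CPM in Vehicle libraries 1 to 4. The groups overlapped, because Aldara library 4 lay below Vehicle library 1. Slc13a2 averaged 7.35 ± 3.41 CPM in Aldara and 2.26 ± 1.39 CPM in Vehicle (SD, n = 4 each, log2 fold change 1.73, SE 0.5) and missed the threshold (adjusted p = 0.057 by edgeR). It passed with the replicate number as a block (adjusted p = 0.0091), without Aldara library 4 (adjusted p = 0.0203) and without Vehicle library 1 (adjusted p = 0.0252). The sulfate carriers Slc13a1 and Slc13a4 had 0 and 10 counts in Aldara and 22 and 3 counts in Vehicle, and the citrate carrier Slc13a5 had 0 counts in Aldara and 5 counts in Vehicle. Vehicle library 3 alone held 21 of the 22 counts of Slc13a1. Per kilobase, Slc13a2 averaged 3.05 ± 1.41 CPM per kb in Aldara and 0.939 ± 0.577 CPM per kb in Vehicle (SD, n = 4 each), below Slc13a3 in every library but Vehicle library 1, where Slc13a2 stood at 1.79 and Slc13a3 at 1.55 CPM per kb.

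Other carriers of carboxylates did not share so wide a difference. Of 20 genes apart from Slc13a3, 13 were tested, 3 rose and 1 fell. Their median log2 fold change was -0.04, beside 0.01 over all tested genes, of which 6.98% rose and 3.86% fell. The lactate exporter Slc16a3 (MCT4) rose to 15.6 CPM in Aldara, against 7.12 CPM in Vehicle (log2 fold change 1.13, adjusted p = 0.0227 by edgeR). The pyruvate and lactate carrier Slc16a7 (MCT2) rose to 14.4 CPM in Aldara, against 8.44 CPM in Vehicle (log2 fold change 0.76, adjusted p = 0.0298 by edgeR). The sulfate and oxalate exchanger Slc26a1 rose to 1.39 CPM in Aldara, against 0.563 CPM in Vehicle (log2 fold change 1.28, adjusted p = 0.0357 by edgeR, 0.0514 with the block). Bsg, the chaperone of the MCT carriers, fell to 418 ± 23.7 CPM in Aldara, against 632 ± 129 CPM in Vehicle (SD, n = 4 each, log2 fold change -0.59, adjusted p = 0.0193 by edgeR). These calls depended on single libraries. Without Aldara library 3, Vehicle library 2 or Vehicle library 4, 0 genes of the list rose. Without Aldara library 2 the 1 rise was Slc16a3, and without Vehicle library 3 it was Slc16a7. Without Aldara library 4 none of Slc16a3, Slc16a7 and Slc26a1 passed (adjusted p = 0.0746, 0.0883 and 0.084), and the 1 rise was Slc13a2. With no filter on low counts Slc16a3 did not pass (adjusted p = 0.0545). The fall numbered 0 without Aldara library 2, where Bsg had an adjusted p of 0.0541, and 2 without Aldara library 4 or Vehicle library 4, where Slc16a1 (MCT1) also passed (adjusted p = 0.0414 and 0.0375). Slc16a1, named after its values were seen, averaged 20.7 CPM in Aldara and 32.6 CPM in Vehicle (adjusted p = 0.0586 by edgeR). The mitochondrial dicarboxylate carrier Slc25a10, also named after its values were seen, averaged 111 ± 12.3 CPM in Aldara and 99.6 ± 5.41 CPM in Vehicle (SD, n = 4 each, adjusted p = 0.314 by edgeR).

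Around Acod1, a list held the enzymes that supply cis-aconitate or break itaconate down, and an exporter. Of its 8 genes apart from Acod1, all tested, 0 rose and 1 fell, with a median log2 fold change of -0.18 and 7 of 8 values negative. Over all tested genes, 6.98% rose and 3.86% fell. In 4 of the 8 every Aldara library lay below every Vehicle library, as in 7.79% of all tested genes. The one that fell was Suclg1, a subunit of succinyl-CoA ligase, at 55.3 CPM in Aldara and 73.7 CPM in Vehicle (log2 fold change -0.42, adjusted p = 0.0177 by edgeR). That call was lost without Aldara library 2 (adjusted p = 0.0504) or Vehicle library 1 (adjusted p = 0.0505), which left a count of 0. Its partner Suclg2 (adjusted p = 0.0717) and the cytosolic enzyme Aco1 (adjusted p = 0.0944) did not pass by edgeR.

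Of the 22 genes of the TCA cycle and succinate oxidation, 0 rose and 3 fell, with a median log2 fold change of -0.12. The shares over all tested genes were 6.98% risen and 3.86% fallen. In 10 of the 22 the Aldara libraries lay wholly below the Vehicle libraries, as they did in 7.79% of all tested genes. Beside Suclg1, Idh3a (isocitrate dehydrogenase) fell to 60.6 CPM in Aldara, against 78.8 CPM in Vehicle (log2 fold change -0.38, adjusted p = 0.0224 by edgeR). Mdh2 (malate dehydrogenase) fell to 145 CPM in Aldara, against 180 CPM in Vehicle (log2 fold change -0.32, adjusted p = 0.0351 by edgeR). The 3 falls numbered 1 without Aldara library 2 or 3 and 0 without Vehicle library 1. Sdha, the succinate dehydrogenase subunit that oxidises succinate, was named after its values were seen and averaged 222 ± 5.29 CPM in Aldara and 216 ± 6.83 CPM in Vehicle (SD, n = 4 each, adjusted p = 0.795 by edgeR).

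Of 9 genes that link glutamate and GABA to the cycle, 8 were tested, 0 rose and 2 fell (median log2 fold change -0.18). Over all tested genes, 6.98% rose and 3.86% fell. Glul, glutamine synthetase, fell to 1230 ± 222 CPM in Aldara, against 3890 ± 1850 CPM in Vehicle (SD, n = 4 each, log2 fold change -1.67, adjusted p = 0.00717 by edgeR), and kept its call when any 1 library was left out. Vehicle library 1 was high, at 6660 CPM. Got2, an aspartate aminotransferase, fell to 114 CPM in Aldara, against 138 CPM in Vehicle (log2 fold change -0.28, adjusted p = 0.0466 by edgeR), but this call was lost without any 1 library other than Aldara library 1 (adjusted p up to 0.115) and with no filter (0.0833), so that the count was then 1.

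N-acetylaspartate is a further substrate of Slc13a3. Of 7 genes of its metabolism 5 were tested, 2 rose and 0 fell, with a median log2 fold change of 0.53. The shares over all tested genes were 6.98% risen and 3.86% fallen. Aspa, the hydrolase that splits N-acetylaspartate, had 1.67, 1.39, 3.05 and 4.52 CPM in Aldara libraries 1 to 4, and 0.469, 0.868, 0.96 and 0.578 CPM in Vehicle libraries 1 to 4. The groups did not overlap, and Aspa rose (log2 fold change 1.85, adjusted p = 0.0164 by edgeR) in every fit that left out 1 library. Nat8l, the synthase, rose to 1.31 CPM in Aldara, against 0.583 CPM in Vehicle (log2 fold change 1.17, adjusted p = 0.048 by edgeR). The call for Nat8l was lost with RLE scaling (adjusted p = 0.0521), upper-quartile scaling (0.0526), no filter (0.0665) and the block (0.055) and without any 1 library other than Aldara library 2 (adjusted p up to 0.133), which left a count of 1.

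Among receptors for metabolites apart from Sucnr1, 10 of 16 were tested, 2 rose and 1 fell, with a median log2 fold change of 0.43. Over all tested genes, 6.98% rose and 3.86% fell. Gpr35, a receptor for kynurenate in vitro, rose to 12.9 CPM in Aldara, against 3.62 CPM in Vehicle (log2 fold change 1.84, adjusted p = 0.0114 by edgeR). P2ry6, the receptor for UDP, rose to 38.4 CPM in Aldara, against 13.5 CPM in Vehicle (log2 fold change 1.5, adjusted p = 0.0123 by edgeR). Hcar2, the receptor for beta-hydroxybutyrate and niacin, fell to 33.8 CPM in Aldara, against 46.4 CPM in Vehicle (log2 fold change -0.46, adjusted p = 0.0119 by edgeR). With no filter on low counts 0 of these receptors rose, since neither Gpr35 (adjusted p = 0.0525) nor P2ry6 (adjusted p = 0.0704) passed. None of the 3 calls was lost when any 1 library was left out, and without Aldara library 4 the ATP and ADP receptor P2ry1 also fell (adjusted p = 0.0456), for a count of 2.

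**Figure D4:**
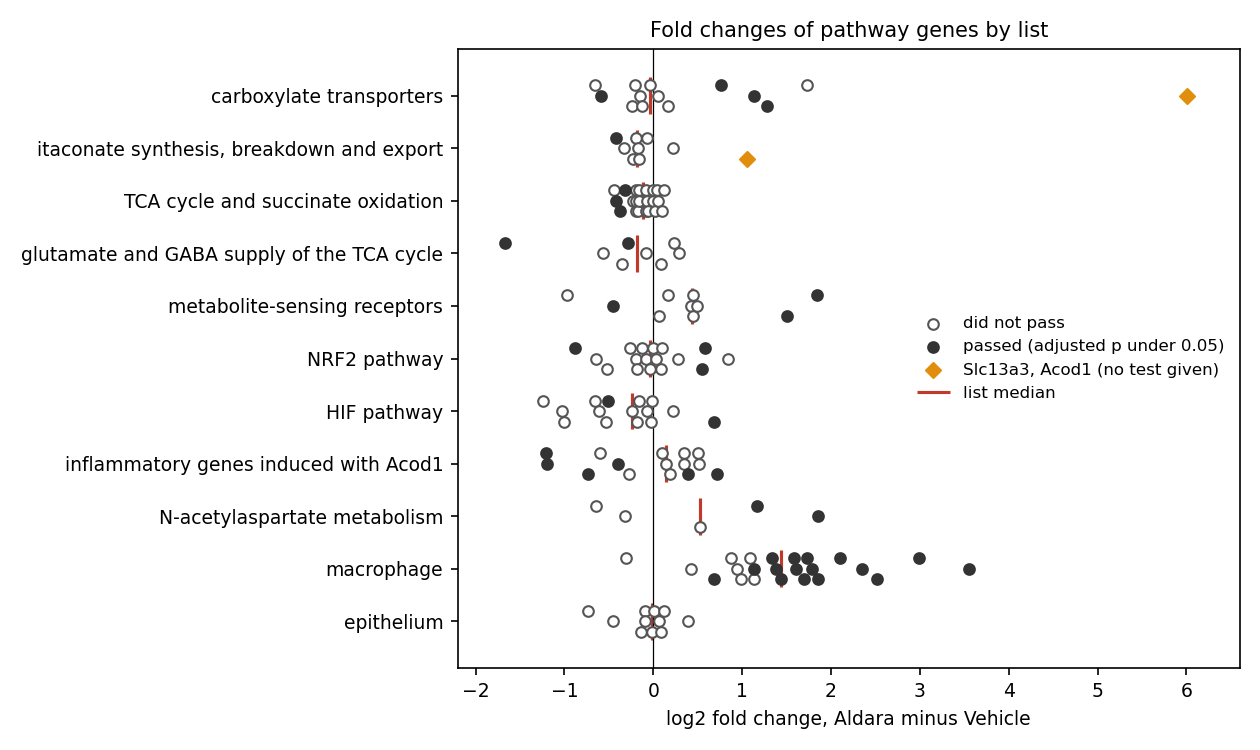
Log2 fold changes, Aldara minus Vehicle, of the tested genes of each list, with filled points for genes that passed the test, open points for those that did not and a bar at the list's median. Slc13a3 at 6.01 stands far to the right of the other carboxylate transporters, Acod1 stands at 1.06, and the macrophage genes lie mostly to the right of 0.

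NRF2 target genes and regulators were taken as a list because itaconate modifies KEAP1. Of 17 NRF2 pathway genes 2 rose and 1 fell (median log2 fold change -0.04), where 6.98% of all tested genes rose and 3.86% fell, so these counts lie near the background. With the replicate block 3 rose and 2 fell. With the block 9.21% of all tested genes rose and 6.14% fell. Osgin1 rose to 61.5 CPM in Aldara, against 41.2 CPM in Vehicle (log2 fold change 0.58, adjusted p = 0.00655 by edgeR). Catalase (Cat) rose to 87.8 CPM in Aldara, against 60.2 CPM in Vehicle (log2 fold change 0.55, adjusted p = 0.0119 by edgeR). G6pdx, the entry enzyme of the pentose phosphate pathway, fell to 109 CPM in Aldara, against 201 CPM in Vehicle (log2 fold change -0.88, adjusted p = 0.00272 by edgeR). Without Aldara library 1 the rises numbered 4 and included Hmox1 (heme oxygenase 1, named after its values were seen, 361 ± 122 CPM in Aldara and 202 ± 47 CPM in Vehicle, SD, n = 4 each), whose adjusted p by edgeR was 0.0752 with all libraries, 0.0077 without that library and 0.000959 with the block. Without Vehicle library 1 the falls numbered 2 and included Gclm, a subunit of glutamate-cysteine ligase (adjusted p = 0.0617 with all libraries and 0.00486 without that one, by edgeR).

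HIF target genes and regulators were taken as a list because succinate can sustain HIF through prolyl hydroxylase inhibition. Of 15 HIF pathway genes 1 rose and 1 fell (median log2 fold change -0.24). These counts are also near the background of 6.98% and 3.86%, but 13 of the 15 log2 fold changes were negative. In 3 of the 15 every Aldara library lay below every Vehicle library, against 7.79% of all tested genes. In 1 every Aldara library lay above, against 9.97%. The genes that passed were both prolyl hydroxylases. Egln2 rose to 107 CPM in Aldara, against 66.8 CPM in Vehicle (log2 fold change 0.68, adjusted p = 0.00864 by edgeR). Egln3 fell to 51.2 CPM in Aldara, against 73 CPM in Vehicle (log2 fold change -0.51, adjusted p = 0.00499 by edgeR). The falls numbered 2 with the block, 2 without Vehicle library 1 and 4 without Vehicle library 3. Among them was the hexokinase gene Hk2 (adjusted p = 0.0546 with all libraries, 0.0482 without Vehicle library 1 and 0.0323 without Vehicle library 3, by edgeR). The glycolytic regulator Pfkfb3 passed without Vehicle library 3 and with the block (adjusted p = 0.0263 and 0.0397, against 0.0774 with all libraries, by edgeR).

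Of 16 inflammatory genes that macrophages induce together with Acod1, 15 were tested, 2 rose and 4 fell (median log2 fold change 0.14). With the block 4 rose and 5 fell. The shares over all tested genes were 6.98% risen and 3.86% fallen, and 9.21% and 6.14% with the block. The chemokine gene Cxcl9 rose to 16.8 CPM in Aldara, against 10.2 CPM in Vehicle (log2 fold change 0.72, adjusted p = 0.0104 by edgeR). Nfkb1 rose to 245 CPM in Aldara, against 186 CPM in Vehicle (log2 fold change 0.39, adjusted p = 0.0268 by edgeR, up to 0.0845 without 1 library). The stress factor Atf3 fell to 1300 CPM in Aldara, against 2170 CPM in Vehicle (log2 fold change -0.73, adjusted p = 0.00782 by edgeR). The cytokine gene Il1a fell to 2.75 CPM in Aldara, against 6.32 CPM in Vehicle (log2 fold change -1.21, adjusted p = 0.0259 by edgeR, up to 0.0816 without 1 library). Il1b, named after its values were seen, averaged 62.1 ± 29.2 CPM in Aldara and 54.3 ± 15.9 CPM in Vehicle (SD, n = 4 each, adjusted p = 0.763 by edgeR). Rises numbered 4 without Aldara library 1 and 1 without Aldara library 3, Aldara library 4 or Vehicle library 2. Falls numbered 1 without Aldara library 2, Vehicle library 3 or Vehicle library 4, and 2 without Aldara library 4 or Vehicle library 2.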

How the data were processed

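RNA of 8 bulk libraries, 4 Aldara and 4 Vehicle, was sequenced after poly-A enrichment and amplification with an ultra-low-input kit that does not mark strand, per the labels' protocols. The deposited values are whole-number counts of reads per Ensembl gene, not normalised. The submitters' processing notes name featureCounts 1.5.0-p3, HISAT2 2.0.5 and DESeq2 with mm10, without options. Symbols, gene types and exon lengths came from GENCODE M21 and matched 52073 of 56748 identifiers (91.8%). Part of the identifiers postdate that release, and promoter coordinates are those of RefSeq, not of the count table.

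Counts were tested with edgeR 4.0.16 in R 4.3.3 (filterByExpr, TMM, robust quasi-likelihood F test, group only, Benjamini-Hochberg over 16780 genes, threshold 0.05). CPM are scaled by TMM factors (0.9566 to 1.035), and log2 CPM used for r and ratios has a prior count of 2. SE values derive from the F statistic. The procedure was tested on simulated data. The 3 genes and the 9 pathway and 12 marker lists were chosen with earlier results of these data known. Named genes are the 3, the SLC13 family, up to 4 genes per pathway list by smallest p, up to 5 genes most like each of Slc13a3 and Acod1, and Adgre1, Csf1r, Ptprc, Tlr7 and Krt8, with others marked where they occur. Fcgr1, Gm14437, Oxgr1, Cd79b, Ly6g, Cxcr1 and Hif1a were also named after their values were seen. Of the genes so taken, 1 is not reported here. Genes that stand in several lists, such as Suclg1, count in each, and lists are described by counts and medians, with no set test.

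Alternatives were RLE and upper-quartile scaling, 2 other filters, DESeq2 1.42.0, a replicate block, other macrophage references and each library left out. For the block, the replicate numbers were taken to pair the libraries. The labels do not say what a number marks, so the main fit used the group only. Deviations from group means correlated at 0.228, 0.108, 0.167 and 0.218 for same-numbered libraries and at -0.216 to 0.082 for others. The closest 2 libraries of a group still differed (chi-square over degrees of freedom 20.2), so none were duplicates. Without molecular identifiers, amplified reads are not separate molecules, so intervals and floors cover counting error only.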

Additional observations from a re-analysis of the deposited data

Results flagged for a closer look

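In 122 groups of 4 libraries, the named genes were screened for a library set apart from the other 3 of its group. Chance alone sets about 1 in 20 groups apart, and neither Slc13a3 nor Acod1 was among those found. Nothing is read here from Sucnr1, which had 1 count in Vehicle library 4 and 0 in every other library. In Vehicle library 1, Glul was high at 6660 CPM (the others 2840 to 3130 CPM), Cat low at 56 CPM (61.2 to 61.8 CPM) and Gclm low at 90.6 CPM (153 to 154 CPM). In Vehicle library 2, Slc26a1 was low at 0.228 CPM (0.642 to 0.703 CPM) and Egln2 high at 74 CPM (63.5 to 64.9 CPM). In Vehicle library 3, Itgal was low at 2.46 CPM (4.07 to 4.27 CPM). In Aldara library 4, Pfkfb3 was high at 439 CPM (378 to 383 CPM) and Hif1a, named after its values were seen, high at 236 CPM (193 to 197 CPM). Between groups, Hif1a averaged 205 ± 20.9 CPM in Aldara and 419 ± 242 CPM in Vehicle (SD, n = 4 each, log2 fold change -1.03). It missed the threshold (adjusted p = 0.08 by edgeR, 0.0451 without Vehicle library 3).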

How the results depend on the processing

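The log2 fold change of Slc13a3 stayed between 5.81 and 6.01 over the scalings, filters, DESeq2 and the block. Its difference of mean log2 CPM relative to the macrophage list was 4.31. That relative difference was 2.33 against Adgre1 and 4.83 against Csf1r. The log2 fold change of Acod1 stayed between 0.81 and 1.06 under the same settings. Its difference of mean log2 CPM was -0.78 relative to the macrophage list and -2.76 relative to Adgre1. Over fits without 1 library, Slc13a3 gave 5.72 to 6.29 (4.17 to 4.48 relative to the list) and Acod1 gave 0.29 to 1.35 (-1.15 to -0.4 relative to the list). Over all genes 1171 rose and 647 fell. The falls numbered 990 with upper-quartile scaling, where 979 rose, 1192 with DESeq2 and 1030 with the block. Without 1 library, 629 to 1405 rose and 323 to 664 fell. The libraries whose removal moved these counts by over 1.5 times were Aldara 3 (658 rose, 323 fell), Aldara 4 (629 rose), Aldara 2 (353 fell), Vehicle 1 (703 rose, 415 fell) and Vehicle 2 (699 rose, 412 fell). With upper-quartile scaling the falls were 2 for carboxylate transporters, 2 for itaconate genes, 5 for the TCA cycle, 2 for NRF2 and 3 for HIF. With DESeq2 they were 2, 2, 5, 3 and 4 in the same order. With at least 1 CPM in 4 libraries they were 2 for itaconate genes and 2 for HIF. With no filter 1 glutamate gene fell and 0 receptors rose. With the block 2 NRF2 and 2 HIF genes fell and 4 inflammatory genes rose. Of N-acetylaspartate genes 1 rose with RLE, upper-quartile scaling, no filter, the 1 CPM filter and the block. Without 1 library, carboxylate transporters had 0 to 3 rises and 0 to 2 falls, itaconate genes 0 to 1 falls, TCA genes 0 to 3 falls, glutamate genes 1 to 2 falls, receptors 1 to 2 falls, NRF2 genes 2 to 4 rises and 1 to 2 falls, HIF genes 1 to 4 falls, inflammatory genes 1 to 4 rises and 1 to 3 falls, and N-acetylaspartate genes 1 to 2 rises. Among genes that did not pass, the log2 fold change of Krt8 (0.01) was -0.0023 with RLE, -0.04 with upper-quartile scaling, -0.0036 with no filter, -0.0023 with DESeq2 and -0.1 to 0.15 without 1 library. Slc35b2 was -0.01 with upper-quartile scaling and -0.05 to 0.09 without 1 library (-0.05 without Aldara 3), Sdha -0.02 with upper-quartile scaling, and Il1b -0.17 to 0.41 without 1 library (-0.17 without Aldara 3). The cause of these shifts was not tested. The block changed the calls of Slc26a1, Nat8l, Slc13a2, Pfkfb3, Csf1r, Tlr7 and Hmox1 among the named genes. DESeq2 called Slc13a2, Csf1r, Hmox1, Suclg2, Gclm, Hk2, Pfkfb3 and Slc16a1, which edgeR did not. Depth limits what can be said of Sucnr1 and Acod1.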
